A study of Mus musculus with 6 samples.

Results

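The Toll-like receptor transcripts of cultured bone marrow-derived macrophages (BMDMs) are described here, as *Tlr1*, *Tlr2*, *Tlr3*, *Tlr4*, *Tlr5*, *Tlr6*, *Tlr7*, *Tlr8*, *Tlr9* and *Tlr13*. These 10 genes were taken by symbol and not by value from the 55335 genes of the expression table, with earlier results of these data known. In the libraries labelled KO, *Tlr2* was 3.97-fold lower and *Tlr1*, *Tlr9* and *Tlr13* were higher than in those labelled WT, while for the other 5 tested receptors the difference did not pass the test. Transcripts of the endosomal receptors made up between 39.0% and 50.5% of the summed receptor level in the libraries labelled WT and between 73.7% and 76.4% in those labelled KO. Most of that shift sat in *Tlr2*, and with *Tlr2* left out the endosomal share overlapped between the groups.

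Toll-like receptors are membrane proteins that bind microbial molecules, and some products of damaged cells, through repeats rich in leucine. TLR1, TLR2, TLR4, TLR5 and TLR6 sit at the cell surface and bind lipoproteins, lipopolysaccharide or flagellin, whereas TLR3, TLR7, TLR8, TLR9 and TLR13 sit in endosomes and bind nucleic acids. All signal through adaptor proteins, chiefly MyD88 and TRIF, to NF-kB and interferon regulatory factors, and macrophages are among the cells known for carrying many of them at once.

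The study asked how neutrophils of either *Cd177* genotype act on macrophages after spinal cord injury (SCI), *Cd177* encoding a surface protein of a neutrophil subset. BMDMs, which arise when bone marrow cells are kept with a macrophage growth factor, were of WT genotype and were grown for 7 days in 25 ng/ml macrophage colony-stimulating factor and then kept for 24 h with neutrophils that magnetic sorting had taken from the spinal cord lesion 3 days post-injury (dpi). The neutrophils came from *Cd177* WT mice in 3 libraries and from *Cd177* KO mice (*Cd177*-/-, purchased as a line) in the other 3, and the macrophages were recovered by flow sorting of Ly6G-negative cells. The animals were male, the purchased C57BL/6 mice were 8 weeks old, and the labels do not say whether the 3 libraries of a group came from separate cultures or animals, so the p-values measure only the spread between these libraries. No BMDMs without neutrophils were analysed here, so both groups are known only after contact with lesion neutrophils.

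The values are FPKM, that is, fragments relative to transcript length and to the total of the library. Their sums lay between 302532 and 340717 per library, with an implied depth of 18000000 to 20700000 fragments. Differences were tested with limma on log2(FPKM + 0.5) in 13367 genes whose mean reached 0.5 FPKM, and an adjusted p under 0.05 (Benjamini-Hochberg over these genes) counted as a call. By that rule 37.6% of the tested genes were called, 27.1% as higher and 10.5% as lower in the libraries labelled KO, and the median log2 fold change of all tested genes was 0.19. A fold change on this scale understates the change of low genes.

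The level of *Cd177* itself ran against the labels, with 0.544, 0.309 and 0.521 FPKM under the label WT against 1.79, 1.84 and 2.28 FPKM under the label KO. For that reason the groups are named by their labels throughout, and every direction below rests on them. All 11 macrophage markers passed the filter on low values, led by *Lyz2*, the lysozyme of myeloid cells, at 4922 FPKM on average in WT and 6144 FPKM in KO. Of these markers 5 were higher and 1 was lower in KO, among them *Mrc1*, the mannose receptor, at 28.0 and 221 FPKM, and *Fcgr1*, an Fc receptor, at 121 and 33.8 FPKM. Of the 16 neutrophil markers, *Cd177* among them, 12 were tested, of which 10 were higher and 1 was lower in KO, and their summed level lay between 202 and 262 FPKM in WT and between 558 and 572 FPKM in KO. The highest was *S100a9*, with means of 90.5 FPKM in WT and 234 FPKM in KO. *Cd177* and *Cxcr2*, with WT means of 0.458 and 0.382 FPKM, passed the filter through their KO values alone, so their calls are no support for a difference. *Ly6g*, the marker of the sort, had a value of 0 in each WT library and of 0.660, 0.547 and 0.403 FPKM in the KO libraries. The part of these neutrophil transcripts in the receptor results was not tested.

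Other cell types that carry Toll-like receptors were followed by their markers too. Of the 9 B cell markers 3 were tested and called higher in KO, *Ighm* having passed the filter through its KO values alone, with a summed level of 1.41 to 2.28 FPKM in WT and 14.7 to 16.9 FPKM in KO, led by *Ighm* in KO, while *Ighd* and *Vpreb3* were listed at 0 in every library. None of the 6 plasmacytoid dendritic cell markers reached the filter, their sum staying between 0.0554 and 0.148 FPKM in WT and between 0.352 and 0.874 FPKM in KO. *Cox6a2* alone carried the higher sum, at 0.0349, 0 and 0 FPKM in WT and 0.309, 0.808 and 0.764 FPKM in KO, while *Ccr9* had a lower mean in KO, *Pacsin1* overlapped between the groups, *Siglech* was at 0 in 5 of 6 libraries and *Klk1* and *Ly6d* were at 0 throughout. The 6 markers of conventional dendritic cells summed to at most 1.16 FPKM in WT and 0.651 FPKM in KO, with *Flt3* at 0 in all libraries. The highest was *Clec9a*, with means of 0.541 FPKM in WT and 0.0526 FPKM in KO. Of the remaining lists, T and NK cells had 1 of 7 markers tested (*Cd4*, higher), mast cells and basophils 1 of 4 (*Mcpt8*, lower), microglia 4 of 5 (2 higher), neural cells 1 of 6 (*Mbp*, not called) and stromal or endothelial cells 5 of 6 (2 lower). Among these called markers *P2ry12* of microglia passed the filter through its KO values alone, and *Kdr* of endothelial cells through its WT values alone. The highest of the microglia list was *Tmem119*, not called. The stromal or endothelial list summed to between 356 and 528 FPKM in WT and between 458 and 520 FPKM in KO. Its highest marker was *Col1a1*, not called, with means of 306 FPKM in WT and 325 FPKM in KO. *Col1a2*, not called either, had means of 130 and 161 FPKM, and *Pdgfrb*, called lower, of 19.4 and 11.7 FPKM. The part of stromal transcripts in the receptor results was not tested. In these bulk samples a change in the number of cells of a type and a change in RNA per cell cannot be told apart.

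**Figure D1:**
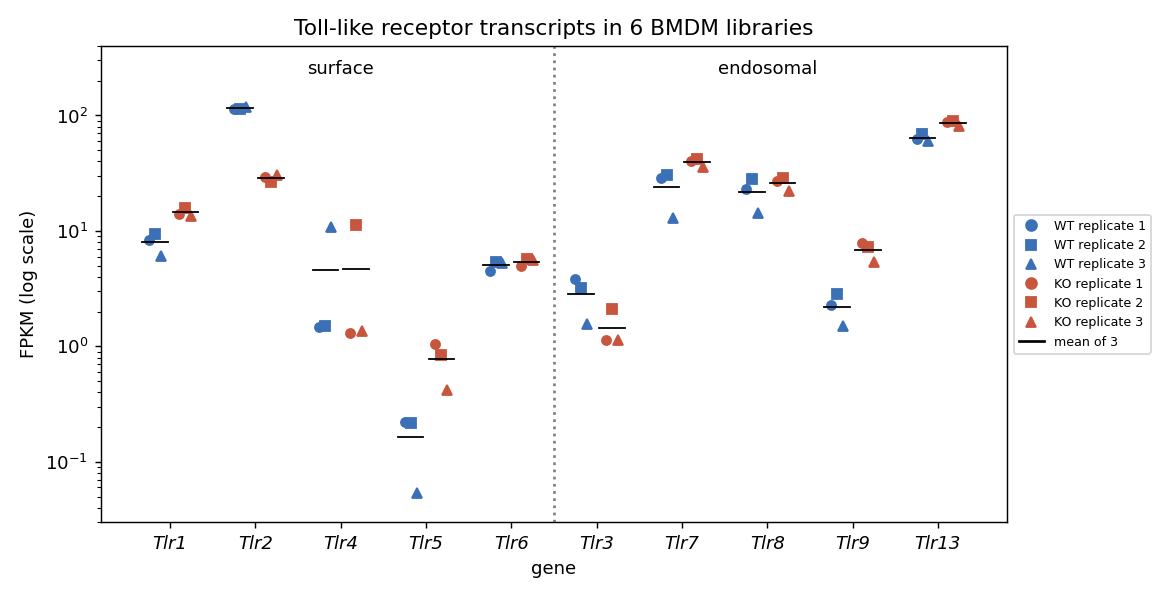
FPKM (vertical log axis) of the 10 receptor genes in each of the 6 libraries, blue for WT and red for KO, with a different marker for each replicate number and a black line at the mean of 3 libraries. *Tlr2* drops from about 116 to 28.8 FPKM, *Tlr9* rises without overlap, and *Tlr4* is near 11 FPKM in 1 library of each group and below 1.5 FPKM in the other 4.

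The plot of FPKM by library shows a range of more than 3 orders of magnitude on its log axis, from 0.0532 FPKM for *Tlr5* to 119 FPKM for *Tlr2*. In the libraries labelled WT the order by mean was *Tlr2*, *Tlr13*, *Tlr7*, *Tlr8*, *Tlr1*, *Tlr6*, *Tlr4*, *Tlr3*, *Tlr9* and *Tlr5*. The ranges of *Tlr7* and *Tlr8* overlapped, as did those of each pair of neighbours from *Tlr6* to *Tlr9*. In the libraries labelled KO the order was *Tlr13*, *Tlr7*, *Tlr2*, *Tlr8*, *Tlr1*, *Tlr9*, *Tlr6*, *Tlr4*, *Tlr3* and *Tlr5*, in which *Tlr2* and *Tlr8* overlapped, and so did each pair of neighbours from *Tlr9* to *Tlr3*. *Tlr2* thus went from rank 1 to rank 3, and *Tlr9* from rank 9 to rank 6.

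Of the 10 receptors 9 passed the filter and 4 of them were called, against 37.6% of all tested genes, with 3 higher (27.1% of all genes) and 1 lower (10.5%). The 2 groups of libraries did not overlap in 6 of the 10, of which 5 were tested, against 51.9% of all tested genes. Both shares are near that background, so the number of calls is no result about the receptors. The median log2 fold change was 0.017 over the 4 surface receptors tested and 0.43 over the 5 endosomal ones, against 0.19 over all tested genes. This order did not hold without replicate 3 of WT, where the medians of the same receptors, *Tlr5* left out, were 0.39 (surface) and 0.39 (endosomal). Without replicate 3 of both groups they were 0.41 and 0.43.

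**Figure D2:**
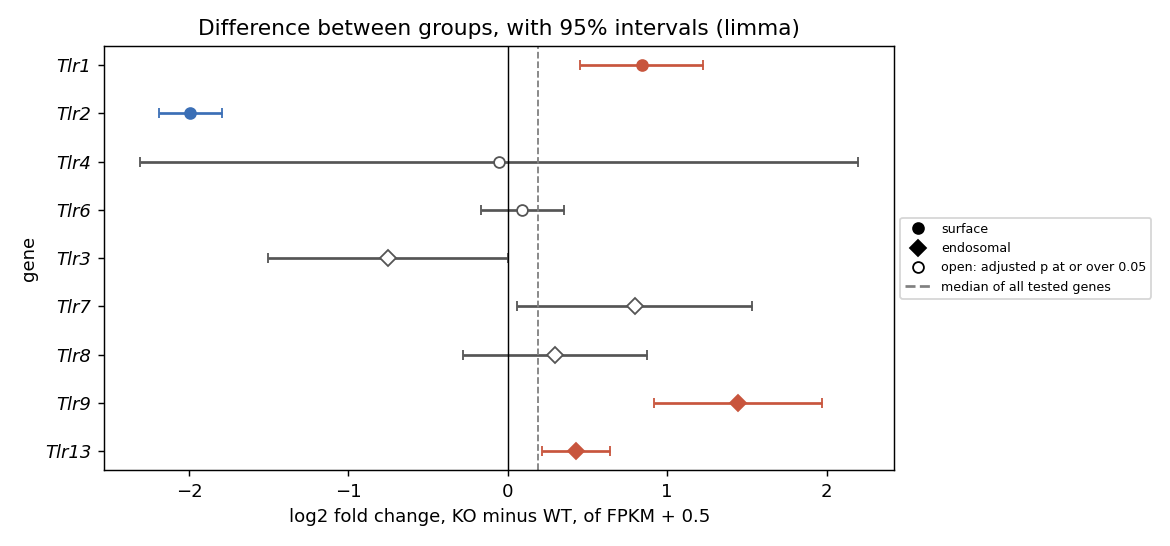
Log2 fold change of FPKM + 0.5, KO minus WT (horizontal axis), for the 9 tested receptors, with bars for 95% intervals from limma, circles for surface and diamonds for endosomal receptors, and filled symbols for an adjusted p under 0.05. *Tlr2* stands alone at -1.99 on the left, *Tlr9* has the largest rise at 1.45, and the interval of *Tlr4* spans -2.31 to 2.20; the dashed line is the median of all tested genes, 0.19.

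Among the surface receptors the plot of fold changes with intervals has *Tlr2* apart from the rest. TLR2 binds bacterial lipoproteins as a partner of TLR1 or TLR6, and its gene (ENSMUSG00000027995) lies at chr3:83836272-83841767 of GRCm38 on the minus strand. It stood at 113, 115 and 119 FPKM in WT and at 29.5, 26.6 and 30.3 FPKM in KO. Every WT library was thus far above every KO library, with means of 116 ± 3.01 and 28.8 ± 1.97 FPKM (SD, n = 3). The log2 fold change was -1.99 (SE 0.082, 95% interval -2.19 to -1.80, adjusted p = 9.94e-06, limma with Benjamini-Hochberg adjustment). Of all tested genes 199 (1.49%) fell as far or further, and the call held in each of 18 alternative settings, with log2 fold changes between -2.22 and -1.93.

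Around the start of *Tlr2* RefSeq gives the following sequence (GRCm38.p6, chr3:83841768-83841858, minus strand), shown because it holds letters of the NF-kB motif, which are in capitals. It is the stretch of the 250 bases before the RefSeq start that no annotated exon covers.
Tlr2: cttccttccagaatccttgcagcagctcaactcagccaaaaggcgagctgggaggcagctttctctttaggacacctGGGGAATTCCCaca
The capitals hold 3 overlapping matches on the 2 strands, the first 173 bases before the start. Of 32851 mouse windows of 250 bases before a start, 3.90% hold at least 1 such match. Among the 8 receptors with a window in the RefSeq table (all but *Tlr4* and *Tlr7*), *Tlr3* also held 1, at 211 bases before its start, and the other 6 held none. The interferon-stimulated response element (GAAA, any 2 bases, GAAA, on either strand), which was searched as well, is held by 2.98% of the windows and was found in *Tlr6* alone, as 2 overlapping matches 116 and 110 bases before the first of its 2 starts. These motifs were chosen after the values had been seen, and a match is a stretch of letters and no evidence of binding.

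*Tlr1* and *Tlr6* encode the partners of TLR2, for lipoproteins with different lipid ends. *Tlr1* (chr5:64924679-64933563) stood at 8.33, 9.45 and 6.10 FPKM in WT and at 14.1, 15.8 and 13.4 FPKM in KO. The groups did not overlap, and the means were 7.96 ± 1.71 and 14.5 ± 1.26 FPKM (SD, n = 3). Its log2 fold change was 0.84 (SE 0.16, 95% interval 0.45 to 1.23, limma adjusted p = 0.00738), and it was called in all 18 alternatives, at 0.62 to 0.97.

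*Tlr6* (chr5:64952031-64960097), the neighbour of *Tlr1* on the same strand, stood at 4.52, 5.41 and 5.29 FPKM in WT and at 4.93, 5.69 and 5.66 FPKM in KO. The groups overlapped, and the log2 fold change of 0.090 (SE 0.11, 95% interval -0.17 to 0.35, limma adjusted p = 0.556) did not pass the test. Its sign turned under 4 other scalings of the libraries (-0.12 to -0.091). The interval leaves room for a rise of up to 0.35 but not for one of the size seen in *Tlr1*.

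The pair shares sequence, which bears on both values. A run of 229 bases is identical in the coding parts of the longest transcripts, at chr5:64925537-64925765 in *Tlr1* and chr5:64953828-64954056 in *Tlr6* (GRCm38, minus strand). It is printed because fragments that lie wholly within it cannot be assigned to either gene.
Tlr1 and Tlr6: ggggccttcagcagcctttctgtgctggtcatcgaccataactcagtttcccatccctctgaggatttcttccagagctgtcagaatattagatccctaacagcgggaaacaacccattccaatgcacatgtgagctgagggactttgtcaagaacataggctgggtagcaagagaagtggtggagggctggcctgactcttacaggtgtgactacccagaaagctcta
Of all stretches of 50 bases, 15.3% in *Tlr1* and 12.6% in *Tlr6* occur in another gene, and 0% in the other 8 receptors. How fragments wholly within shared stretches were counted is not given in the sources used here, so the levels of *Tlr1* and *Tlr6* are uncertain by what such fragments contribute.

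The balance between TLR2 and its partners can be read within each library, where a scaling factor for the whole library plays no part. The ratio of *Tlr2* to *Tlr1* was 13.6, 12.1 and 19.5 in WT and 2.09, 1.68 and 2.26 in KO. The ratio of *Tlr2* to *Tlr6* was 25.1, 21.2 and 22.5 in WT and 5.99, 4.67 and 5.36 in KO. Both ratios were lower in every KO library than in any WT library, yet *Tlr2* remained the most abundant of the 3 transcripts in all 6 libraries.

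*Tlr4*, the receptor for lipopolysaccharide (chr4:66827584-66930284), split the libraries in another way. It stood at 1.47, 1.50 and 10.8 FPKM in WT and at 1.29, 11.4 and 1.35 FPKM in KO. Replicate 3 of WT and replicate 2 of KO were at least 7.19-fold above the highest of the other 4 libraries, so the groups overlapped. The means of 4.57 ± 5.36 and 4.67 ± 5.79 FPKM (SD, n = 3) describe no library. Accordingly the log2 fold change of -0.055 (SE 0.95, 95% interval -2.31 to 2.20, limma adjusted p = 0.970) could not resolve a difference in either direction, and it moved between -0.95 and 1.22 over 17 alternatives. Leaving out replicate 3 of WT gave 0.78, leaving out replicate 1 or 3 of KO gave 0.41 or 0.38, and none of these passed the test. A split of this kind is rare in the table: of 11751 genes whose mean reached 1 FPKM, 44 (0.374%) range 5-fold or more within both groups. In this pair of libraries, picked by the values of *Tlr4* itself, 3 genes, *Tlr4* included, are at least 5-fold higher than in the others. Over all 9 pairs of 1 library from each group there are 16 such genes (0.136%). The annotation gives *Tlr4* 4 transcripts, and which of them were counted is not given.

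*Tlr5*, the flagellin receptor (chr1:182954788-182976044), was the lowest of the 10. It stood at 0.219, 0.219 and 0.0532 FPKM in WT and at 1.05, 0.844 and 0.418 FPKM in KO. The groups did not overlap, but the mean of 0.468 FPKM was under the filter, so that the gene was not tested. By the implied depth and the longest transcript, these values would correspond to about 4 to 72 fragments per library. This is a rough estimate, since the true fragment counts are unknown. With no filter the log2 fold change was 0.91 (limma adjusted p = 0.0512).

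Among the endosomal receptors *Tlr9* differed most. TLR9 binds DNA with unmethylated CpG, and its gene (ENSMUSG00000045322) lies at chr9:106222598-106226883 on the plus strand. It stood at 2.29, 2.84 and 1.50 FPKM in WT and at 7.86, 7.20 and 5.35 FPKM in KO. No WT library came near a KO library, and the means were 2.21 ± 0.674 and 6.80 ± 1.30 FPKM (SD, n = 3). The log2 fold change of 1.45 (SE 0.22, 95% interval 0.92 to 1.97, limma adjusted p = 0.00281), a fold of 2.73, was called in all 17 alternatives that tested the gene. B cells and plasmacytoid dendritic cells are known for *Tlr9*. Their markers given above were at or near 0 for most defining genes, with higher values in KO for *Ighm*, *Cd79b*, *Ebf1* and *Cox6a2*, and their part in the result was not tested.

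*Tlr13*, whose product binds bacterial ribosomal RNA, was the most abundant endosomal receptor. Its gene (ENSMUSG00000033777) lies at chrX:106143204-106160493. It stood at 61.9, 69.3 and 60.1 FPKM in WT and at 88.1, 88.9 and 80.5 FPKM in KO, without overlap, with means of 63.8 ± 4.89 and 85.8 ± 4.62 FPKM (SD, n = 3). The log2 fold change was 0.43 (SE 0.090, 95% interval 0.21 to 0.64, limma adjusted p = 0.0102). This rise is the smallest of the called ones, and it was lost under median-of-ratios scaling (0.20, limma adjusted p = 0.125) and upper-quartile scaling (0.21, limma adjusted p = 0.104), which move the median of all tested genes from 0.19 to -0.012 and 0.0003.

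The windows of the 3 receptors called higher are printed with PU.1 letters (GAGGAA, searched on both strands) in capitals. This motif too was chosen after the values had been seen, and a match is no evidence of binding. PU.1 is a transcription factor of the myeloid lineage.
Tlr1 (RefSeq, GRCm38.p6, chr5:64933564-64933808, minus strand, first of 2 starts): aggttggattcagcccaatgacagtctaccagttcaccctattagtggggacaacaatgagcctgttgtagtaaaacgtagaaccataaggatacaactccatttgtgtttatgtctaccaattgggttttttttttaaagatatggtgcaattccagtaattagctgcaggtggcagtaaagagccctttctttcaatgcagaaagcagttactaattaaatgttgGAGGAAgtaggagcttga
Tlr9 (RefSeq, GRCm38.p6, chr9:106222348-106222597, plus strand): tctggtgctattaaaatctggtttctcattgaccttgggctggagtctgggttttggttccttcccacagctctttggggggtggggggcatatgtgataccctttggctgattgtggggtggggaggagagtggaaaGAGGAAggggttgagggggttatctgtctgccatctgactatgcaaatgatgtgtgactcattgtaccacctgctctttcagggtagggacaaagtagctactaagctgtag
Tlr13 (RefSeq, GRCm38.p6, chrX:106143025-106143203, plus strand): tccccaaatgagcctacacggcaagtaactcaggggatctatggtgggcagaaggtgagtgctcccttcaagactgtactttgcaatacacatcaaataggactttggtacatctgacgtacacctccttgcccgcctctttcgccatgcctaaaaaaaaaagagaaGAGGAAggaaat
The match lies 23 bases before the start in *Tlr1*, 112 in *Tlr9* and 83 in *Tlr13*, and the window of the other start of *Tlr1* held none. Such letters are common, since 23.3% of the 32851 windows hold them. *Tlr8*, which was not called, held them as well, at 77 bases before its start on the other strand, and *Tlr2*, *Tlr3*, *Tlr5* and *Tlr6* did not.

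*Tlr7* and *Tlr8* are neighbours on chromosome X (chrX:167304929-167330558 and chrX:167242696-167264329), and TLR7 is a sensor of single-stranded RNA to which TLR8 is closely related. *Tlr7* stood at 28.6, 30.4 and 12.9 FPKM in WT and at 40.6, 41.7 and 35.9 FPKM in KO. The groups did not overlap, but replicate 3 of WT lay far below its fellows, and the log2 fold change of 0.80 (SE 0.31, 95% interval 0.059 to 1.53, limma adjusted p = 0.0854) missed the threshold. Without that library it was 0.41 with an adjusted p of 0.0126 (limma), a smaller difference with a smaller spread.

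*Tlr8* stood at 22.9, 28.3 and 14.4 FPKM in WT and at 27.1, 28.9 and 22.3 FPKM in KO. Here the groups overlapped, and the log2 fold change was 0.29 (SE 0.24, 95% interval -0.28 to 0.87, limma adjusted p = 0.378). Within a library *Tlr7* was 1.25, 1.07 and 0.898 times as high as *Tlr8* in WT and 1.50, 1.44 and 1.61 times in KO, so that the ratio was higher in every KO library.

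*Tlr3*, the receptor for double-stranded RNA (chr8:45395665-45411080), was the one endosomal receptor with a lower mean in KO. It stood at 3.81, 3.22 and 1.56 FPKM in WT and at 1.14, 2.09 and 1.13 FPKM in KO. Replicate 3 of WT lay inside the KO range, and the log2 fold change of -0.75 (SE 0.32, 95% interval -1.50 to 0.0017, limma adjusted p = 0.106) missed the threshold. Without that library it was -1.07 (limma adjusted p = 0.0140). An antisense gene, *Gm45542*, overlaps 381 exonic bases of *Tlr3* at a mean of 0.0858 FPKM, and strand is not stated in the sources used here, so reads of the pair cannot be told apart.

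The calls of *Tlr3* and *Tlr7* thus changed when replicate 3 of WT was left out. With it kept, *Tlr3* was also called under quantile normalization (-0.99, limma adjusted p = 0.0389). Against the other 2 WT libraries its 10 receptors lay lower by a median of -0.44 on the log2 scale, and the whole table showed a pattern by length, with a median of 0.23 for genes under 2 kb and -0.26 for genes of 4 kb and over. Replicate 3 of KO had a weaker pattern of the same sign, with -0.26 for the receptors. The part of transcript length in the receptor values was not tested. Without replicate 3 of WT, 7 receptors were called (5 higher, 2 lower), namely those of the full set together with *Tlr3*, *Tlr5* and *Tlr7*, and without replicate 3 of both groups 7 were called again (5 higher, 2 lower). *Tlr5* entered these counts because its KO values alone lifted its mean over the filter, so its call there is no support for a difference.

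**Figure D3:**
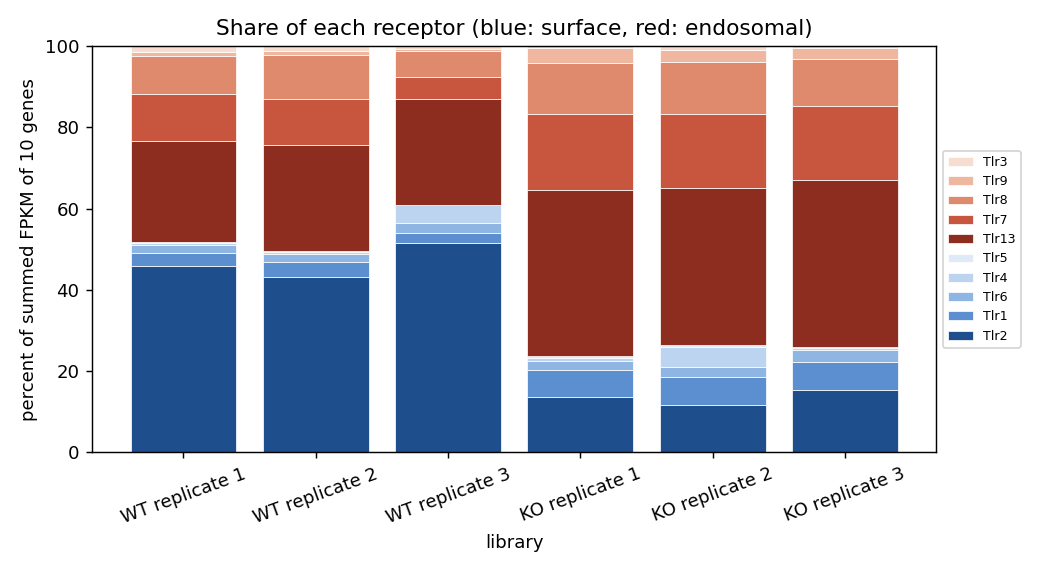
Share of each receptor in the summed FPKM of the 10 genes (vertical axis, percent) for each library, blue for surface and red for endosomal receptors. The endosomal part reaches 39.0% to 50.5% in the 3 WT bars and 73.7% to 76.4% in the 3 KO bars, with *Tlr2* and *Tlr13* as the largest blocks.

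The stacked shares put the surface receptors against the endosomal ones within each library. The surface genes summed to 128, 131 and 141 FPKM in WT and to 50.9, 60.3 and 51.1 FPKM in KO. The endosomal genes summed to 120, 134 and 90.4 FPKM in WT and to 165, 169 and 145 FPKM in KO. Both sums separated the groups, in opposite directions, while the total of all 10 went from 248, 266 and 232 FPKM to 216, 229 and 196 FPKM. These sums were taken on FPKM as given and, unlike the share below, depend on the scaling factor of each library.

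As a share of that total the endosomal receptors held 48.3%, 50.5% and 39.0% in WT and 76.4%, 73.7% and 74.0% in KO. A scaling factor for a whole library cannot move this share. Quantile normalization and the length and GC correction can, and the share was not computed under them. The 3 KO libraries lay close together, and the lowest was above the highest WT library. With 3 libraries a group, an exact two-sided permutation test cannot go below a p of 0.1, so none was used for the share. Most of the shift sat in *Tlr2*, whose share was 45.8%, 43.2% and 51.4% in WT and 13.7%, 11.6% and 15.4% in KO, and *Tlr13* held 25.0%, 26.1% and 25.9% against 40.8%, 38.8% and 41.0%. Without *Tlr2* the surface genes summed to 14.5, 16.6 and 22.2 FPKM in WT and to 21.4, 33.7 and 20.8 FPKM in KO, ranges that overlap. The endosomal share of the receptors without *Tlr2* overlapped between the groups as well. The ratio of *Tlr13* to *Tlr2* was 0.546, 0.604 and 0.504 in WT and 2.98, 3.34 and 2.66 in KO.

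The genes closest in pattern to *Tlr2* and *Tlr9*, the receptors with the largest fall and the largest rise, were sought among 11750 genes by the root mean square difference of centred log2(FPKM + 0.5) over the 6 libraries. For *Tlr2* these were *Cxcl16* (0.0652), *Irf1* (0.0797) and *Sod2* (0.0798). For *Tlr9* they were *Itga4* (0.0697), *Camk1d* (0.0759) and *Grk3* (0.0905). This likeness is a description over 6 libraries of 2 groups.

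**Figure D4:**
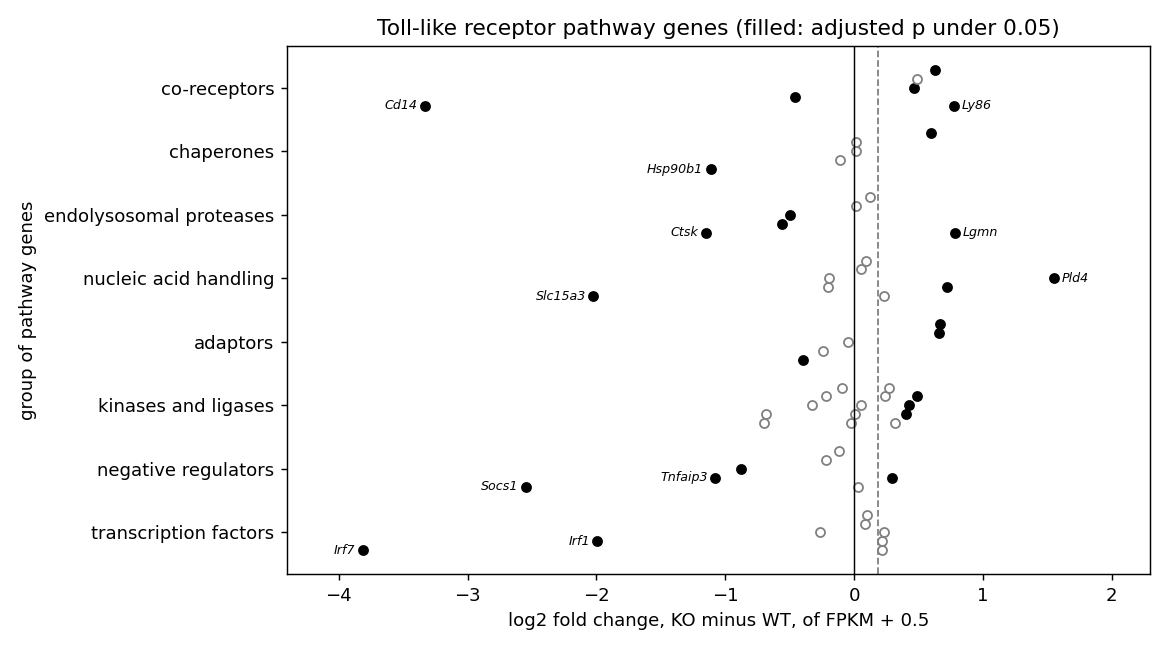
Log2 fold change of FPKM + 0.5, KO minus WT (horizontal axis), for the 59 tested genes of 8 groups of the Toll-like receptor pathway (vertical axis), filled for an adjusted p under 0.05 by limma, with a solid line at 0 and a dashed line at the median of all tested genes, 0.19. *Irf7*, *Cd14* and *Socs1* lie farthest left, at -3.81, -3.33 and -2.55, and *Pld4* farthest right, at 1.55.

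The rest of the pathway is shown in the plot of pathway genes by group. Of 61 genes 59 were tested, 13 were higher, 13 were lower and 33 were not called, with a median log2 fold change of 0.014. Thus 26 of 59 were called, against 37.6% of all tested genes. All 13 lower calls held under 5 other scalings, and 8 of the 13 higher calls did. Median-of-ratios, upper-quartile and quantile scaling lowered the median of all tested genes from 0.19 to -0.012, 0.0003 and 0.032. The length and GC correction lowered it to -0.017. Such shifts favour lower calls and work against higher ones, so these counts do not show the falls to be firmer than the rises. Under every alternative that tested them at an adjusted p under 0.05, 10 of the lower and 8 of the higher genes were called.

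The co-receptors act at the cell surface, handing ligands to TLR2 and TLR4 or pairing with relatives of them. Of 6, 3 were higher and 2 were lower. *Lbp*, counted as higher, passed the filter through its KO values alone, with means of 0.389 FPKM in WT and 0.732 FPKM in KO. It was called in 5 of 17 alternatives, so its call is no support for a difference. *Cd14*, which passes lipopolysaccharide and lipoproteins on, fell from 1010 ± 150 to 99.4 ± 8.39 FPKM (log2 fold change -3.33, limma adjusted p = 6.82e-06), and *Cd36*, a scavenger receptor, fell by 0.46 on the log2 scale. *Ly86* and *Cd180*, which form a complex related to TLR4, rose by 0.77 and 0.62. *Ly96*, the subunit through which TLR4 binds lipopolysaccharide, was not called at 0.49 (limma adjusted p = 0.0992).

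Chaperones carry the receptors to their place. *Unc93b1*, which takes the nucleic acid receptors to the endosome, stood at 116, 112 and 119 FPKM in WT and at 176, 168 and 182 FPKM in KO. The groups did not overlap, and the log2 fold change was 0.60 (SE 0.075, limma adjusted p = 0.00119), between 0.37 and 0.67 and called under each of 5 other scalings. *Hsp90b1*, the folding chaperone of most Toll-like receptors, fell from 349 ± 39.1 to 161 ± 11.7 FPKM (-1.11, limma adjusted p = 0.000394), and the other 3 of the 5 were not called.

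Endolysosomal proteases cut the endosomal receptors into their active form, and of 6 in the list 1 was higher and 3 were lower. *Lgmn*, an asparagine endopeptidase, rose by 0.78 and *Ctsk* and *Ctsl*, cathepsins, had log2 fold changes of -1.15 and -0.56. Among 8 genes that handle nucleic acids in these compartments, 2 were higher and 1 was lower. *Pld4*, an exonuclease that degrades ligands of TLR9 and TLR7, rose from 28.2 ± 0.548 to 83.4 ± 4.04 FPKM (1.55, limma adjusted p = 1.89e-05). The transporters *Slc15a4* and *Slc15a3* moved apart, the former at 0.72 and the latter at -2.02, from 183 ± 9.59 to 44.6 ± 2.68 FPKM (limma adjusted p = 1.05e-05).

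Of 6 adaptors 5 were tested, with 2 higher and 1 lower. *Myd88*, the adaptor of all the receptors here but TLR3, fell from 28.6 ± 2.23 to 21.6 ± 1.86 FPKM (-0.40, limma adjusted p = 0.0208), a call lost in 3 of 18 alternatives (highest adjusted p = 0.0853), each of which left out 1 library. *Ticam1*, which encodes TRIF and serves TLR3 and TLR4, was not called at -0.24 (limma adjusted p = 0.163). *Ticam2*, the bridge between TLR4 and TRIF, rose by 0.67, and *Pik3ap1*, a link to phosphoinositide signalling, by 0.66.

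Of 14 kinases and ligases below the adaptors, all tested, 3 were called higher and none was called lower. *Tbk1*, a kinase of the interferon branch that was singled out after its values were seen, missed the threshold at -0.33 (limma adjusted p = 0.0514) and was called lower under each of 5 other scalings. The higher genes were led by *Tab2* at 0.49 and *Irak4* at 0.43, neither of which was called under median-of-ratios or upper-quartile scaling. Among 8 negative regulators 7 were tested, with 1 higher (*Cyld*, 0.29, called in 4 of 17 alternatives) and 3 lower. *Socs1*, an inhibitor of cytokine and receptor signalling, went from 7.03 ± 0.692 to 0.788 ± 0.0760 FPKM (-2.55, limma adjusted p = 1.38e-05), and *Tnfaip3*, which removes ubiquitin chains from the pathway, had a log2 fold change of -1.08.

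Of 8 transcription factors none was higher and 2 were lower, both interferon regulatory factors. *Irf7*, which drives type I interferon genes below TLR7 and TLR9, stood at 40.5, 41.6 and 41.9 FPKM in WT and at 2.55, 2.74 and 2.19 FPKM in KO, with a log2 fold change of -3.81 (limma adjusted p = 1.86e-06). *Irf1* went from 47.6 ± 4.13 to 11.6 ± 0.434 FPKM (-1.99, limma adjusted p = 1.44e-05). The genes of NF-kB subunits in the list, *Nfkb1*, *Rela* and *Rel*, were not called.

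The 2 Toll-like receptor genes outside the 10, *Tlr11* and *Tlr12*, were under the filter. *Tlr12* stood at 0.312, 0.341 and 0.314 FPKM in WT and was listed at 0, 0 and 0.0171 FPKM in KO, and *Tlr11* reached at most 0.0552 FPKM in any library.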

How the data were processed

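RNA-seq of 6 BMDM libraries, 3 labelled WT and 3 labelled KO by the genotype of the co-cultured neutrophils, was analysed. The table the authors deposited holds FPKM for each gene in each library. The submitters' processing notes name fastp 0.17.1, HISAT2 2.1.0, DESeq2 1.18.1 and R 3.4.3. The genome build, the annotation and the counter of fragments are not given in the sources used here, and labels and methods name different RNA reagents, library kits and sequencers. FPKM is relative to the library's total, so that large changes in abundant genes shift all others.

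Symbols, positions and lengths came from GENCODE M21 (GRCm38), which 55154 identifiers (99.7%) matched, and promoter windows from RefSeq (GRCm38.p6). The depth was estimated from the smallest values of genes with 1 transcript. Between 43.2% and 46.1% of low values came within 0.1 of whole multiples of that step (20% by chance), so fragment counts stayed unknown and a count test was not possible.

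The test was limma 3.58.1 under R 4.3.3 on log2(FPKM + 0.5), two-sided and with an intensity trend in eBayes, in genes whose mean reached 0.5 FPKM and with no covariate, with Benjamini-Hochberg adjustment over all tested genes. It was checked on simulated data. Python 3.11.15, pandas 2.3.3, numpy 2.4.6 and matplotlib 3.10.9 were used for the rest.

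The receptors, the pathway and marker lists and the tests were chosen with earlier results of these data known. Of the pathway genes, the 2 largest rises and falls among those called in each group were named, with *Cd14*, *Ly96*, *Unc93b1*, *Myd88* and *Ticam1* in any case. Of each marker list the gene with the highest FPKM was named, with some of the defining markers at 0. The gene groups left without a test were described by counts and medians. Alternatives were other pseudocounts, filters, scalings, thresholds, a robust variance, the replicate number as a block, and each library left out. A correction for length and GC and the removal of replicate 3 from both groups were added after seeing the data.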

Additional observations from a re-analysis of the deposited data

How the results depend on the processing

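At an adjusted p under 0.05 the calls of *Tlr1*, *Tlr2* and *Tlr9* held under every alternative that tested them, and those of *Tlr4*, *Tlr6* and *Tlr8* were absent under all of them. *Tlr1* lost its call at the study's threshold given below, its fold change being 1.79. The log2 fold change of *Tlr6* turned to -0.12 under median-of-ratios scaling, -0.11 under upper-quartile scaling, -0.091 under quantile normalization and -0.10 with a correction for length and GC. That of *Tlr4*, which ranged from -0.95 (without KO replicate 2) upwards with 1 library left out, turned to 0.78, 0.41 and 0.38 without WT replicate 3, KO replicate 1 and KO replicate 3, and to 1.22 without replicate 3 of both groups. The number of receptors called ranged from 3 to 7 with 1 library left out (higher 2 to 5, lower 1 to 2), was 7 (5 higher, 2 lower) without replicate 3 of both groups, included 2 lower under quantile normalization, and was 2 (1 higher) at the study's threshold of a fold above 2 and an unadjusted p under 0.05. The median of the surface receptors ranged from -0.45 to 0.39 with 1 library left out, the lowest without KO replicate 2. *Tlr5* was kept out of this median also in the settings where it passed the filter. The median of the endosomal receptors ranged from 0.39 to 0.50, and both medians were 0.39 without WT replicate 3. *Tlr13* lost its call without KO replicate 1 as well (limma adjusted p = 0.05003).

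Of the pathway genes, 8 were higher and 21 lower under both median-of-ratios and upper-quartile scaling, 23 were lower with the length and GC correction, and 9 (1 higher, 8 lower) passed the study's threshold. Over all genes 5027 were called (3619 higher, 1408 lower). The counts were 2739 (1756 higher) at a mean of at least 5 FPKM, 2057 higher and 2259 lower under median-of-ratios scaling, 2122 and 2152 under upper-quartile scaling, 2864 lower with the length and GC correction, 1485 (893 and 592) at the study's threshold and 2929 (2007 and 922) at an adjusted p under 0.01. Higher genes were 72.0% of the calls, 47.7% under median-of-ratios scaling, 49.6% under upper-quartile scaling, 55.7% under quantile normalization and 48.0% with the length and GC correction. The causes of these moves were not tested.

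Both groups number their replicates 1 to 3, but nothing says that these numbers pair the samples, and the deviations of same-numbered libraries correlated at 0.116, 0.036 and 0.264. With the number as a block 5934 genes were called (4253 higher), and *Tlr7* had an adjusted p of 0.0365 (limma). KO replicate 2 correlated best with WT replicate 1 (0.160) and not with its own number.

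With 3 libraries a group and no fragment counts, low receptors are the least certain, *Tlr5* above all, and *Tlr4* could not be resolved.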
